A study of Mus musculus with 12 samples.

Results

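The LIF receptor pathway was followed through 9 mouse genes, chosen by symbol for their place in it: the receptor genes Lifr and Il6st, the kinase gene Jak1, the transcription factor gene Stat3, and the STAT3 target genes Socs3, Pim1, Pim3, Junb and Gbx2. They are 9 of 56691 mouse gene IDs, and all 9 passed the filter on low counts that left 13230 genes. RNA was counted from transcript 3′ ends in 12 libraries of R1 cells, a male 129 line of embryonic stem cells, 3 libraries in each of 4 groups. For 9 of the libraries, cells spent 6 days in 2i, which combines a MEK inhibitor with a GSK3 inhibitor, with no further drug, with 25 µM or with 50 µM of an inhibitor of MRE11; the sources used here do not give its name. MRE11 is a nuclease that acts at DNA breaks and stalled replication forks. The starting cells were grown in serum with LIF on gelatin, were collected at day 0 and are called primed in the labels. No group was kept in serum with LIF to day 6, so effects of 2i and of time in culture cannot be told apart. The labels do not say whether the 2i medium held LIF or serum, nor whether replicates were separate cultures. All p-values therefore rest on the spread among these libraries, and that spread may be technical.

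LIF is the cytokine that keeps mouse embryonic stem cells self-renewing in serum. It binds LIFR, which pairs with the shared signal chain gp130, the product of Il6st; the bound kinase JAK1 then phosphorylates STAT3, which enters the nucleus and switches on its targets. Some targets hold the naive state, others are immediate responses, and SOCS3 closes the loop by binding gp130 and JAK to shut the signal off. Several of the same targets, among them Junb and the PIM kinase genes, are also known to respond to other signals, including the ERK pathway that the MEK inhibitor of 2i blocks.

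The 300-base RefSeq windows around the start sites (GRCm38.p6, 250 bases before to 50 after the start) matched all 9 genes, with 11 windows. Each was searched on both strands for TTCNNNGAA, the palindromic form bound by STAT proteins. Socs3 was the only member with a match, TTCTTAGAA, whose first base lies at position -154 from the start site, and 8.3% of all 32851 windows hold a match. The letters GGGCGG, the GC box bound by Sp1-type factors, were found in 8 of the 11 member windows, against 35.7% of all windows. CACGTG, the E-box bound by MYC, was found in 2 of them, against 7.15% of all windows. The CArG box bound by serum response factor was found in 0 of them, against 1.63% of all windows. No matches of different motifs overlapped in a member window. A match is a description of these letters and not a bound site. The 250 bases before the start are shown for Socs3, which carries the STAT-type match, and for Pim1 and Pim3, the related kinase genes that moved in opposite directions below. Capitals mark TTCNNNGAA in Socs3 and GGGCGG on either strand (CCGCCC when read on the other) in the Pim genes. The windows are chr11:117969367-117969616 (minus strand), chr17:29490535-29490784 (plus strand) and chr15:88861944-88862193 (plus strand). By the GENCODE annotation, which carries the gene farther upstream, the Socs3 window lies inside the gene.
Socs3: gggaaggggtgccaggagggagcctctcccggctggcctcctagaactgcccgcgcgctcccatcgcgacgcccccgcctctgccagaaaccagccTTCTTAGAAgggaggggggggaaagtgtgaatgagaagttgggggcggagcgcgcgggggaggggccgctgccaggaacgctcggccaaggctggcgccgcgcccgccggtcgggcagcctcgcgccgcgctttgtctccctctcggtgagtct
Pim1: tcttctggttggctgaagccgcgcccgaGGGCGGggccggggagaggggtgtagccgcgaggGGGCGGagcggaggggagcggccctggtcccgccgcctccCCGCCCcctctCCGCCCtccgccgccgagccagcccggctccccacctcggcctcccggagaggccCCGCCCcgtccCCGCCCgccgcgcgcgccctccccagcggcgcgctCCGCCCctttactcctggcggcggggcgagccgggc
Pim3: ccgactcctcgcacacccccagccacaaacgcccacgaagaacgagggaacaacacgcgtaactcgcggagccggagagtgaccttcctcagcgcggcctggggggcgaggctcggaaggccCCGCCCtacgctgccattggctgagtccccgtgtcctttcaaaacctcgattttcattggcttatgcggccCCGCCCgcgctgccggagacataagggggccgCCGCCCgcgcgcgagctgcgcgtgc
The printed stretch held 7 GC-box matches for Pim1 and 3 for Pim3.

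The libraries held 5894561 to 7060126 counts. Replicate 1 stood apart from the others within each group: chi-square per degree of freedom was 8.82 to 11.71 in pairs with replicate 1 and 2.48 to 6.64 in pairs without it, so no libraries were treated as duplicates. Levels are given as CPM, counts scaled to the size of each library, and are compared between groups for a gene but not between genes. The 7 embryonic stem cell markers summed to between 4305 and 4950 CPM in the day 6 libraries and to between 3861 and 4527 CPM in primed libraries. Fibroblast or feeder markers, 7 in all, summed to 30.4 to 72.9 CPM in primed, 11.5 to 16.4 in 2i, 4.55 to 5.54 at 25 µM and 0.895 to 2.11 at 50 µM, with Dcn, Lum and Postn at 0 in primed and at 50 µM. The part of the fibroblast markers in the results below was not tested. Markers of extraembryonic endoderm, trophoblast and blood cells summed to between 3.03 and 19.2 CPM per list in every library. Fewer cells of a type and less RNA per cell cannot be told apart in such bulk samples.

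The first comparison asked how the pathway stood after 6 days in 2i relative to serum with LIF. Il6st, Jak1 and Pim1 were higher in 2i, Socs3, Pim3 and Junb were lower, and Lifr, Stat3 and Gbx2 were not called. A call is a Benjamini-Hochberg adjusted p below 0.05 in edgeR's quasi-likelihood test over all 13230 genes. The background was high, with 40.4% of all genes called (20% higher and 20.4% lower), so 6 of 9 is not read as particular to the pathway. The libraries did not overlap for the same 6 of the 9 genes, against 50.4% of all genes. All 6 calls held under every alternative setting and without any single library.

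**Figure D1:**
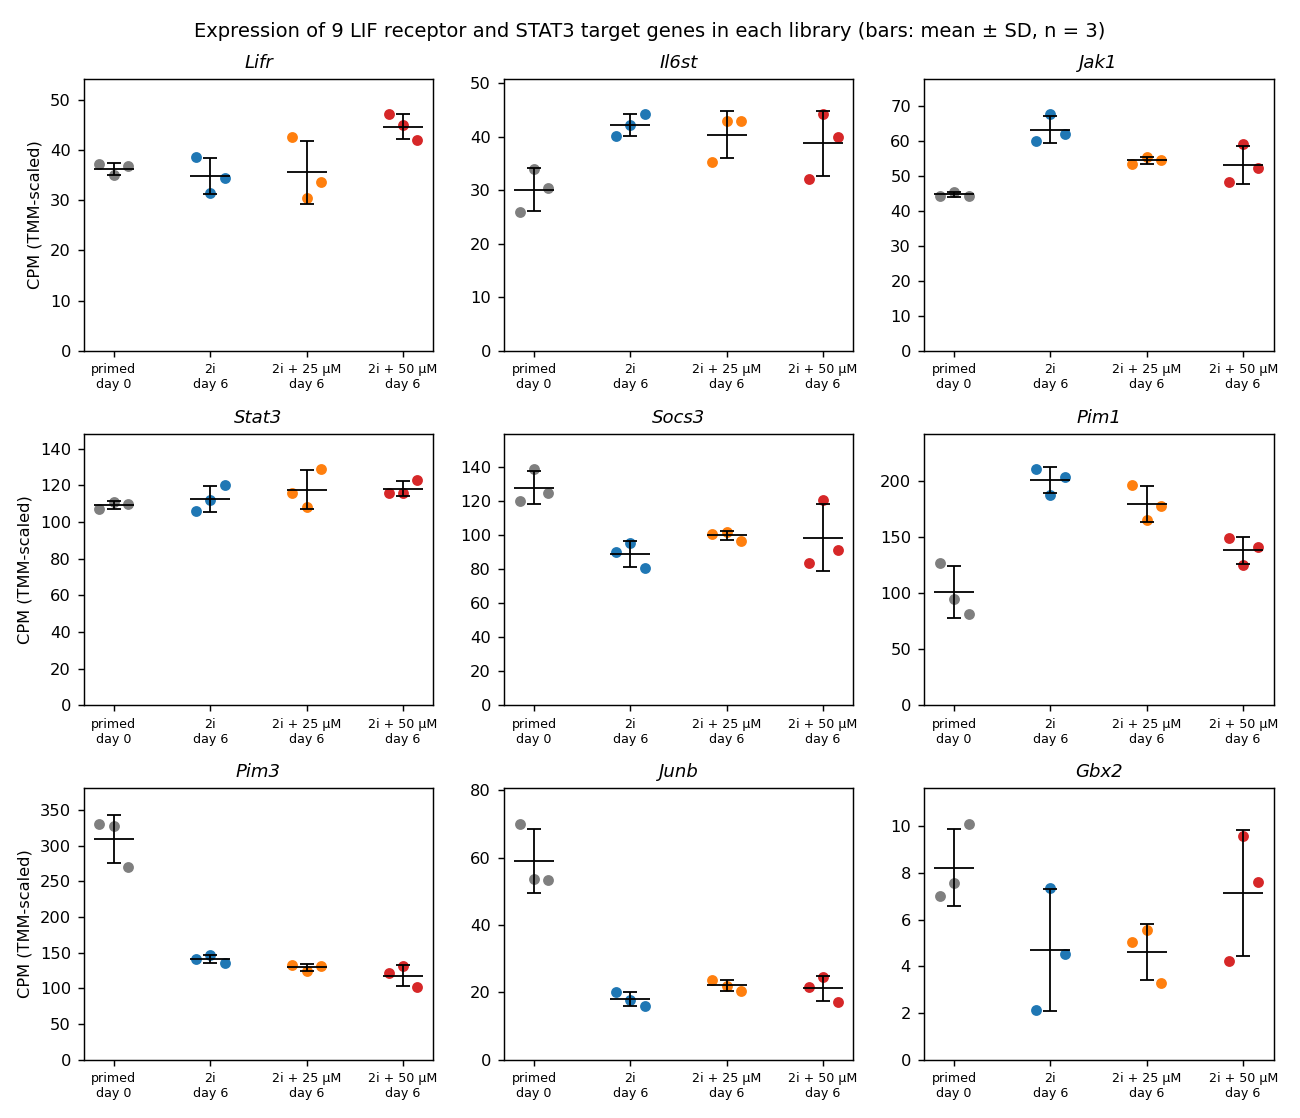
TMM-scaled CPM of the 9 genes in each library (points; replicates 1 to 3 from left to right), with the mean ± SD of 3 libraries (bars), in primed, 2i, 25 µM and 50 µM groups. Pim1 is high in 2i and lower at 50 µM, Pim3 and Junb are high in primed alone, and Stat3 stays between 106 and 129 CPM in all 12 libraries.

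At the receptor, Lifr (ENSMUSG00000054263, chromosome 15, 7090614 to 7197489) encodes the chain that gives LIF its specificity. Its level was 38.7, 31.5 and 34.5 CPM in 2i and 37.3, 35 and 36.8 CPM in primed cells, and the libraries overlapped. The log2 fold change was -0.06 (95% interval -0.32 to 0.20; edgeR adjusted p = 0.742). Il6st (ENSMUSG00000021756, chromosome 13, 112464070 to 112510086) encodes gp130, the chain shared by the cytokines of the interleukin-6 family. Its level was 40.1, 42.3 and 44.2 CPM in 2i and 26, 34 and 30.4 CPM in primed cells. Every 2i library was above every primed library, a rise of 1.4-fold (log2 0.49 ± 0.13 SE; edgeR adjusted p = 0.00465).

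Jak1 (ENSMUSG00000028530, chromosome 4, 101152367 to 101265282), the kinase gene that serves gp130, had 60, 67.5 and 61.8 CPM in 2i and 44.3, 45.4 and 44.2 CPM in primed cells. The groups did not overlap, and Jak1 rose 1.41-fold in 2i (log2 0.50 ± 0.10; edgeR adjusted p = 0.000317). Its 3′ end shares 4 bases with Raver2 on the opposite strand, which fell in 2i (log2 -1.28 ± 0.20; edgeR adjusted p = 1.73e-05). Stat3 (ENSMUSG00000004040, chromosome 11, 100885098 to 100939540) had 106, 112 and 120 CPM in 2i and 107, 111 and 110 CPM in primed cells. These libraries overlapped, and the log2 fold change of 0.04 had an interval of -0.14 to 0.22 (edgeR adjusted p = 0.741). Its 3′ end shares 72 bases with Stat5a on the opposite strand, which was not called in 2i (edgeR adjusted p = 0.545). Messenger RNA levels do not report the phosphorylation that activates STAT3.

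Socs3 (ENSMUSG00000053113, chromosome 11, 117966079 to 117970047), the feedback inhibitor and the gene whose window carried the STAT-type match, had 90.4, 95.7 and 80.8 CPM in 2i and 120, 139 and 125 CPM in primed cells. All 2i libraries lay below all primed libraries. The level fell to 0.697 of that in primed cells (log2 -0.52 ± 0.11; edgeR adjusted p = 0.000787).

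The PIM kinases are serine/threonine kinases that favour survival and growth and work without an activating phosphorylation, so that their level sets much of their activity. Pim1 (ENSMUSG00000024014, chromosome 17, 29490753 to 29496112) had 211, 188 and 204 CPM in 2i and 127, 94.5 and 81.5 CPM in primed cells. The groups did not overlap, and Pim1 rose 1.99-fold (log2 0.99 ± 0.13; edgeR adjusted p = 2.71e-06). Pim3 (ENSMUSG00000035828, chromosome 15, 88862186 to 88865726) moved the other way, with 141, 147 and 135 CPM in 2i and 331, 327 and 270 CPM in primed cells. Its level fell to 0.456 of that in primed cells (log2 -1.13 ± 0.10; edgeR adjusted p = 5.74e-09). The ratio of Pim1 to Pim3 counts within a library was 1.5, 1.27 and 1.5 in 2i and 0.383, 0.289 and 0.302 in primed cells, and every 2i library had a higher ratio than every primed library. Pim2, the remaining family member, had 11.7, 11.9 and 14 CPM in 2i and 55.5, 56.7 and 57.8 CPM in primed cells. It fell as Pim3 did (log2 -2.18 ± 0.13; edgeR adjusted p = 1.57e-11). Of the 3 PIM genes, Pim1 thus rose and the other two fell.

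Junb (ENSMUSG00000052837, chromosome 8, 84974484 to 84978718) encodes a subunit of the AP-1 transcription factor and is an early response gene of LIF and of many growth factors. Its level was 20.1, 17.8 and 16.1 CPM in 2i and 70.1, 53.6 and 53.4 CPM in primed cells. The groups were far apart, and Junb fell to 0.305 of its level in primed cells (log2 -1.71 ± 0.14; edgeR adjusted p = 3.01e-09), the largest change among the 9 genes. A non-coding Junb transcript shares 351 bases with Prdx2 on the opposite strand, while the protein-coding transcript ends 2076 bases from it. The shared bases lie at the annotated 3′ end of both genes, and the libraries were counted from 3′ ends. Over all libraries Prdx2 had 16785 counts and Junb 2291. Without strand, reads in shared bases cannot be told apart, here or for Jak1 and Stat3 above. How many reads fell in them was not tested. Prdx2 averaged 223 CPM in 2i and 196 CPM in primed cells (edgeR adjusted p = 0.0821).

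Gbx2 (ENSMUSG00000034486, chromosome 1, 89927956 to 89931179) encodes a homeobox factor that, in cultured mouse cells, can hold the naive state downstream of STAT3. It was counted 14 to 65 times per library, which limits its precision. Its level was 2.15, 7.36 and 4.52 CPM in 2i and 6.99, 7.57 and 10.1 CPM in primed cells. The groups overlapped through 2i replicate 2, and the log2 fold change of -0.81 ± 0.35 was not called (edgeR adjusted p = 0.077). Without 2i replicate 2 it was -1.31 and was called (edgeR adjusted p = 0.00752). It was also called with no low-count filter (0.00982), limma voom (0.0406) and the replicate block (0.00893).

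**Figure D2:**
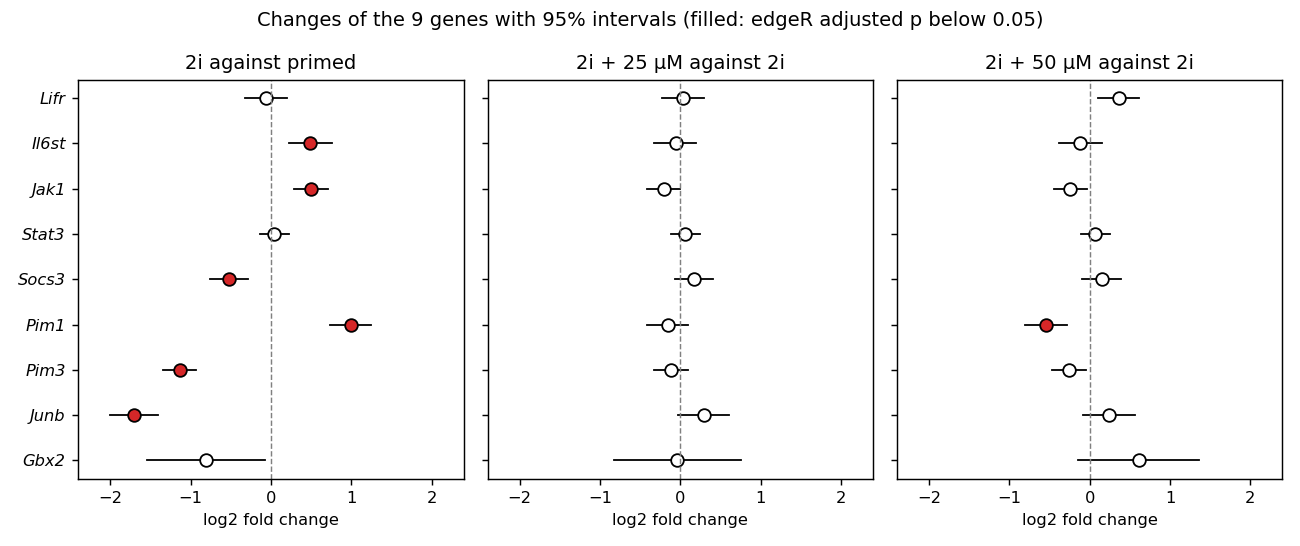
Log2 fold changes of the 9 genes with 95% intervals (lines) in 2i against primed, 2i with 25 µM against 2i, and 2i with 50 µM against 2i; filled points have an edgeR adjusted p below 0.05. In the first panel 6 genes are filled, 3 to the right and 3 to the left of 0. In the second panel 0 are filled, and in the third panel only Pim1 is, at -0.54. The fit shown leaves out the replicate number. With the number as a block, Lifr, Jak1 and Pim3 were also called in the third comparison.

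The wider pathway was read from 9 lists of 106 distinct genes, of which 94 were tested. These lists, like the 9 members, were chosen with earlier results of these data known, so their counts are descriptions. Every member except Gbx2 is also on a list, and some genes, such as Fos, are on more than 1. The list counts are thus not separate from each other or from those of the members. Without the members, 86 list genes were tested, of which 14 rose and 42 fell in 2i. In 2i, the median log2 change of all genes tested was -0.01, with 20% called higher and 20.4% lower. Of 7 tested ligands and receptors of the family, out of 13 listed, 3 rose and 0 fell, with a median of 0.49, the value of Il6st. With no low-count filter all 13 were tested, and 3 rose and 1 fell. Il6ra, the receptor chain for interleukin-6, had 20.7, 8.25 and 10.2 CPM in 2i and 2.18, 2.52 and 1.4 CPM in primed cells. It rose 6.39-fold (log2 2.68 ± 0.39; edgeR adjusted p = 3.23e-05), with no overlap between groups. Osm, which encodes the ligand oncostatin M, rose 3.1-fold (log2 1.63 ± 0.26; edgeR adjusted p = 4.49e-05) to 16.1 CPM in 2i, against 5.17 CPM in primed cells. Lif itself had 4 CPM in 2i and 2.36 CPM in primed cells and was not called (edgeR adjusted p = 0.172).

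Of 11 JAK and STAT genes, 1 rose, 2 fell and 8 were not called, with a median of 0.03. The gene that rose was Jak1. Stat5b (log2 -0.73 ± 0.22; edgeR adjusted p = 0.0118) and Stat6 (log2 -0.44 ± 0.15; edgeR adjusted p = 0.0212) fell, STATs that mainly serve other cytokines. The Stat6 call ended without primed replicate 1 (edgeR adjusted p = 0.0853), primed replicate 3 (0.0554) or 2i replicate 3 (0.125). It also ended with no low-count filter (0.0503). Jak2 (log2 0.43), Jak3 (log2 0.36) and Tyk2 (log2 0.03) were among the genes not called.

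Among 16 genes that restrain the signal, 7 fell, 2 rose and 7 were not called, with a median of -0.19. Among the SOCS genes, grouped after these values were seen, Cish fell the most (log2 -1.84 ± 0.30; edgeR adjusted p = 3.23e-05), followed by Socs1 (log2 -1.27 ± 0.25; edgeR adjusted p = 0.000293), Socs5 (log2 -1.03 ± 0.24; edgeR adjusted p = 0.0013), Socs2 (log2 -0.61 ± 0.10; edgeR adjusted p = 2.16e-05) and Socs3 as given above. Socs4, Socs6 and Socs7 were not called. The genes that rose were Pias3 (log2 0.86 ± 0.15; edgeR adjusted p = 7.19e-05), whose product binds activated STAT3, and its relative Pias2 (log2 0.66 ± 0.08; edgeR adjusted p = 1.5e-06). Pias1 and the phosphatase gene Ptpn1 fell by 0.39 and 0.45 on the log2 scale (edgeR adjusted p = 0.00637 and 0.000411).

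The targets of STAT3 were listed by kind. Of 8 targets tied to naive pluripotency, 5 rose, 1 fell and 2 were not called, with a median of 0.86. Gbx2, which can also hold the naive state, was not on this list. Its log2 change was -0.81, which was not called in the main fit but was under the other settings given above. Tfcp2l1 rose by 2.56 ± 0.09, Pramel7 by 2.06 ± 0.24 and Klf4 by 1.14 ± 0.12 on the log2 scale (edgeR adjusted p = 3.98e-15, 3.27e-07 and 2.27e-07), genes whose products can each sustain self-renewal when raised in mouse cells. Nanog and Esrrb rose by 1.10 and 0.62 (edgeR adjusted p = 5.98e-09 and 1.18e-05). Myc fell by 3.90 ± 0.42 (edgeR adjusted p = 2.97e-07), and Klf5 and Sall4 were not called (log2 -0.02 and -0.12). Of 26 other targets, mostly acute response genes, 3 rose, 12 fell and 11 were not called, with a median of -0.29. Sgk1 (log2 0.92 ± 0.13) rose, while Irf1 (log2 -1.69 ± 0.11), Ier3 (log2 -1.19 ± 0.15) and Mcl1 (log2 -0.59 ± 0.10) fell, each with an edgeR adjusted p of at most 5.97e-05.

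Neighbouring pathways were read in the same way. All 6 tested AP-1 genes of 9 listed fell, with a median of -1.52; Jun fell by 1.69 ± 0.22 and Jund by 0.45 ± 0.11 (edgeR adjusted p = 2.57e-06 and 0.00252). Among them the call of Fos ended without primed replicate 3 (0.0695), and that of Atf3 without primed replicate 1 (0.166), primed replicate 3 (0.0638), 2i replicate 2 (0.074) or 2i replicate 3 (0.162). The Atf3 call also ended with DESeq2 (adjusted p = 0.0675). All 13 ERK feedback genes fell, with a median of -2.17, and of these calls that of Spred2 ended without primed replicate 3 (0.0519). Of 9 tested interferon response genes out of 12 listed, 5 fell and 2 rose. Their median was -1.55, and it was the same with Psmb8, which had 0 counts in 2i, set to its bound (at least 58.1-fold lower in 2i, taking 3 counts over the group as the floor). Fosl2, Egr1, Dusp4, Spry4, Isg15 and Psmb8, and Rgs16 among the other STAT3 targets, averaged at most 1.19 CPM in every day 6 group. Such genes passed the low-count filter only because of the primed libraries, so their fall was set by the filter. The counts and medians of these lists include them.

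**Figure D3:**
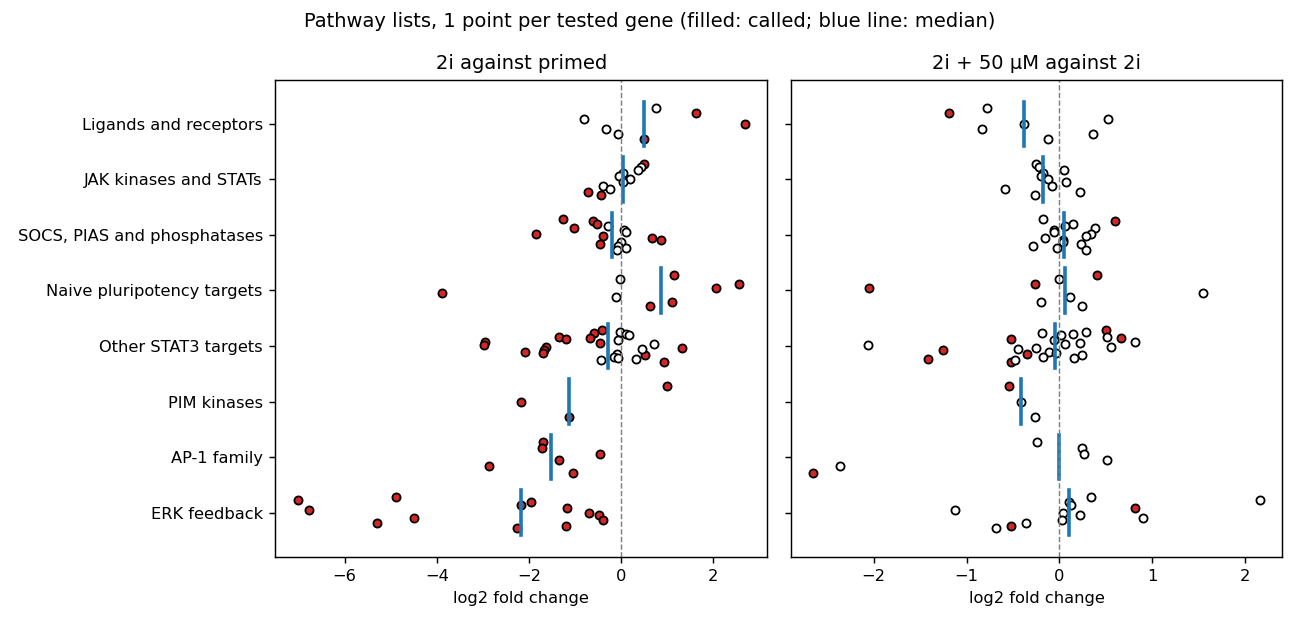
Log2 fold changes of the tested genes of 8 pathway lists in 2i against primed (left) and in 2i with 50 µM against 2i (right), 1 point per gene, filled where called; blue lines are list medians. In the left panel the naive targets have a median of 0.86 and all ERK feedback genes are below 0. In the right panel the medians lie between -0.41 and 0.10. Gbx2 is on none of these lists.

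The second question was what the MRE11 inhibitor did to these genes in 2i. Both doses were compared with the same 2i libraries, so their changes are not independent. At 25 µM, 0 of the 9 genes were called, with 0.937% of all genes called (0.454% higher and 0.484% lower); 0 were higher and 1 (Jak1) lower at an unadjusted p below 0.05, and DESeq2 and limma voom likewise called 0. The 25 µM and 2i libraries did not overlap for 4 of the 9 genes, against 19.5% of all genes. At 50 µM, Pim1 was called lower and the other 8 were not called, with 15.1% of all genes called (7.01% higher and 8.07% lower), and libraries did not overlap for 4 of the 9, against 32.4% of all genes. Day 6 libraries of the same replicate number varied together, which the fit that defines a call leaves out. When the replicate number entered the fit as a block, 0 of the 9 were called at 25 µM. At 50 µM the block called 4 of the 9, with Lifr higher and Jak1, Pim1 and Pim3 lower, so that Pim1 as the only call depends on leaving the number out. With that block 24.5% of all genes were called at 50 µM.

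Pim1 had 211, 188 and 204 CPM in 2i, 197, 165 and 178 CPM at 25 µM, and 149, 125 and 141 CPM at 50 µM. Every library at 50 µM lay below every library of the other two groups, and those at 25 µM overlapped 2i. At 50 µM Pim1 fell to 0.687 of its level in 2i (log2 -0.54 ± 0.12; edgeR adjusted p = 0.00615). Over all alternatives the change stayed between -0.62 and -0.47, with an adjusted p of at most 0.0353. At 25 µM the change was -0.16 (interval -0.41 to 0.10; edgeR adjusted p = 0.633). The difference between the doses, -0.38 ± 0.12, was not called (edgeR adjusted p = 0.169), but was with the replicate block (0.00361) and with no low-count filter (0.0108). Along the doses the slope was -0.27 ± 0.05 per 25 µM (edgeR adjusted p = 0.000728), where 15.2% of all genes had a called slope (7.11% up and 8.06% down). The antisense transcript Gm26885, which shares 1173 bases with the 5′ part of Pim1, was not called at 50 µM (log2 -0.45 ± 0.22; edgeR adjusted p = 0.185).

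Pim3 had 141, 147 and 135 CPM in 2i, 133, 124 and 132 CPM at 25 µM, and 121, 131 and 102 CPM at 50 µM. The libraries of either dose lay below those of 2i. The change at 50 µM was -0.26 ± 0.10 (edgeR adjusted p = 0.0827). It was called with the replicate block (0.0105) and without 50 µM replicate 2 (-0.34; edgeR adjusted p = 0.0453). At 25 µM it was -0.12 (edgeR adjusted p = 0.667). Pim2 averaged 9.45 CPM at 50 µM and 12.5 CPM in 2i (log2 -0.41 ± 0.15; edgeR adjusted p = 0.0795). The ratio of Pim1 to Pim3 counts was 1.24, 0.957 and 1.38 at 50 µM and 1.5, 1.27 and 1.5 in 2i. The groups overlapped, and in each of the 3 pairs with the same replicate number the ratio was lower at 50 µM; this difference was not tested.

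Lifr had 38.7, 31.5 and 34.5 CPM in 2i, 42.7, 30.4 and 33.7 CPM at 25 µM, and 47.2, 45 and 42.1 CPM at 50 µM. Every library at 50 µM was above every 2i library, and the 25 µM libraries overlapped both. The log2 change at 50 µM was 0.36 ± 0.12, just outside the threshold (edgeR adjusted p = 0.0513). With the replicate block it was 0.36 and was called (0.00792), as it was without 2i replicate 1 (0.44; edgeR adjusted p = 0.0368) and with only the groups compared in the fit (0.0479). At 25 µM the change was 0.03 ± 0.12 (edgeR adjusted p = 0.954). Between the doses it was 0.33 ± 0.12 (edgeR adjusted p = 0.24, and 0.0487 with the replicate block).

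Jak1 had 60, 67.5 and 61.8 CPM in 2i, 53.3, 55.3 and 54.5 CPM at 25 µM, and 48.1, 58.9 and 52.3 CPM at 50 µM. All libraries with inhibitor were below all 2i libraries. The change was -0.21 ± 0.10 at 25 µM (edgeR adjusted p = 0.351) and -0.25 ± 0.10 at 50 µM (0.0948), the second of which was called with the replicate block (0.0332) and without 50 µM replicate 2 (-0.33; edgeR adjusted p = 0.0474). Il6st, its receptor partner, had 35.3, 43 and 42.9 CPM at 25 µM and 32.1, 44.2 and 40 CPM at 50 µM, overlapping 2i at either dose (log2 -0.06 and -0.12; edgeR adjusted p = 0.884 and 0.578).

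Stat3 had 116, 108 and 129 CPM at 25 µM and 116, 116 and 123 CPM at 50 µM, overlapping 2i. Its log2 change of 0.07 at 50 µM had an interval of -0.11 to 0.25. Socs3 had 101, 102 and 96.8 CPM at 25 µM and 83.5, 121 and 91.1 CPM at 50 µM. The libraries at 25 µM lay above 2i and those at 50 µM overlapped it, and neither change was called (log2 0.17 and 0.15 for 25 and 50 µM; edgeR adjusted p = 0.567 and 0.413). Junb had 23.8, 22 and 20.4 CPM at 25 µM, all above 2i, and 21.7, 24.6 and 17.3 CPM at 50 µM, overlapping it, with log2 changes of 0.29 and 0.24 that were not called (edgeR adjusted p = 0.426 and 0.327). Gbx2 had 5.02, 5.53 and 3.27 CPM at 25 µM and 4.23, 9.55 and 7.61 CPM at 50 µM, overlapping 2i at either dose (log2 -0.04 and 0.61; edgeR adjusted p = 0.98 and 0.267). Its interval at 50 µM, -0.14 to 1.36, was the widest of the 9.

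Between 50 and 25 µM 0 of the 9 genes were called, with 1.16% of all genes called (0.181% higher and 0.975% lower). The libraries did not overlap for 1 of the 9, Pim1, against 16.7% of all genes; 1 was higher (Lifr) and 1 lower (Pim1) at an unadjusted p below 0.05, DESeq2 and limma voom called 0, and the replicate block called both, with 4.1% of all genes called.

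At 50 µM against 2i, 15.1% of all genes were called, 7.01% higher and 8.07% lower. Of the wider pathway there, 5 of the 94 tested genes on the lists rose, 10 fell and 79 were not called. Their median was -0.03, beside 0.01 for all genes. Of these 15 calls, those of Pim1, Osm, Pramel7, Socs2, Vegfa and Atf3 held without any single library, and the other 9 did not. Osm, which had risen in 2i, had 3.88, 7.46 and 9.55 CPM at 50 µM and 12.1, 14.9 and 21.3 CPM in 2i. It fell to 0.438 of its level in 2i, with no overlap (log2 -1.19 ± 0.25; edgeR adjusted p = 0.00325). The naive target Pramel7 had 9.98, 11.9 and 11.6 CPM in 2i, 7.69, 9.27 and 8.66 CPM at 25 µM, and 2.11, 2.83 and 3.08 CPM at 50 µM, and no group overlapped another. At 50 µM it fell to 0.242 of its level in 2i (log2 -2.05 ± 0.24; edgeR adjusted p = 6.5e-06) and also differed between the doses (log2 -1.66 ± 0.24; edgeR adjusted p = 0.000816). Its mean at 50 µM, 2.67 CPM, stood beside 2.65 CPM in primed cells.

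Socs2, the inhibitor best known for restraining growth hormone signals, had 85.4, 70.9 and 77.3 CPM in 2i, 101, 113 and 98.6 CPM at 25 µM, and 125, 121 and 106 CPM at 50 µM. Either dose was above 2i without overlap. It rose at 50 µM (log2 0.60 ± 0.10; edgeR adjusted p = 0.000253). At 25 µM it was the only gene on the lists to be called (log2 0.42 ± 0.10, edgeR adjusted p = 0.0403). This call ended without 2i replicate 2 (0.198), 2i replicate 3 (0.137) or any of the 25 µM libraries (0.0864 to 0.182). The 25 µM call also ended with only the groups compared in the fit (0.0841). With the replicate block the targets Birc5 (log2 0.23; edgeR adjusted p = 0.033) and Cebpb (log2 -1.28; edgeR adjusted p = 0.0285) were called there as well, with 4.74% of all genes called. No other SOCS gene was called at 50 µM.

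Of the 8 naive targets, Klf4 was called higher at 50 µM (log2 0.40 ± 0.12; edgeR adjusted p = 0.0264) and Pramel7 and Tfcp2l1 lower (Tfcp2l1 log2 -0.26 ± 0.08; edgeR adjusted p = 0.0293). The calls of Klf4 and Tfcp2l1 each ended in 4 of the 6 fits that left out a library, with adjusted p of 0.0529 to 0.184 for Klf4 and 0.0795 to 0.0975 for Tfcp2l1. The Tfcp2l1 call also ended with only the groups compared in the fit (edgeR adjusted p = 0.0686). With the replicate block 3 naive targets were higher and 3 lower, Esrrb and Myc joining Klf4, and Nanog joining the others. Myc had 3.17, 1.94 and 2.27 CPM at 50 µM and 1.07, 0.589 and 0.807 CPM in 2i (log2 1.55 ± 0.53; edgeR adjusted p = 0.0567, and 0.0106 with the block). Of the 26 other targets 2 rose and 5 fell. Sgk1 fell by 0.52 on the log2 scale (edgeR adjusted p = 0.00968), a call that ended without 2i replicate 2 (0.0604), and Vegfa, which encodes an endothelial growth factor, fell by 1.41 (0.00164). Among the ERK feedback genes 1 rose and 1 fell of 13, and 0 of 9 interferon response genes were called. With the replicate block, Lifr was higher and Osm and Il11ra1 lower of the 7 ligands and receptors, and Socs2, Pias1 and Ptpn11 were higher and Ptpn2 lower of the 16 genes that restrain the signal. The block also called 2 of the 3 PIM genes lower, 1 of the 6 AP-1 genes higher and 2 lower, and 2 of the 13 ERK feedback genes higher and 1 lower.

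Set against primed cells, the inhibitor groups kept the calls of 2i for the same genes. With 25 µM, 3 of the 9 were higher and 3 lower than in primed cells, where 42.3% of all genes were called (21.3% higher and 21% lower). With 50 µM, 3 were higher and 3 lower, where 44.3% were called (22.6% higher and 21.7% lower). The libraries did not overlap with primed for 7 of the 9 genes at 25 µM, against 51.3% of all genes, and for 5 at 50 µM, against 52.1%. In each case the higher genes were Il6st, Jak1 and Pim1 and the lower ones Socs3, Pim3 and Junb; these comparisons share the primed libraries with each other and with that of 2i. For Pim1 the log2 change from primed cells was 0.99 in 2i, 0.83 at 25 µM and 0.45 at 50 µM. At 50 µM its libraries overlapped those of primed cells through primed replicate 1, at 127 CPM. For Jak1 the changes were 0.50, 0.28 and 0.25 in that order. The calls of Pim1, Pim3 and Junb against primed held without any single library, while those of Il6st, Jak1 and Socs3 did not hold without some single libraries or under some settings. At 25 µM that of Il6st (edgeR adjusted p = 0.0118) ended without primed replicate 1 (0.0692) or 25 µM replicates 2 (0.0511) or 3 (0.0585). That of Jak1 (0.0256) ended without primed replicates 1 (0.0582) or 3 (0.0657) or 25 µM replicates 2 (0.0694) or 3 (0.069), with no low-count filter (0.0513) and with DESeq2 (0.0566). That of Socs3 (0.0148) ended without primed replicate 2 (0.0788). At 50 µM that of Il6st (0.027) ended without primed replicates 1 (0.129) or 3 (0.0564) or 50 µM replicates 2 (0.157) or 3 (0.0711), and with DESeq2 (0.0539). That of Socs3 (0.0104) ended without primed replicate 2 (0.0602) or 50 µM replicates 1 (0.0548) or 3 (0.0523), and that of Jak1 (0.0457) ended without 5 of the 6 libraries (0.0688 to 0.219) and under 6 other settings (0.0587 to 0.106). Gbx2 was below primed at 25 µM in every library and was not called (log2 -0.85 ± 0.35; edgeR adjusted p = 0.0619), but was with no low-count filter (0.00548), DESeq2 (0.0444), only the groups compared in the fit (0.0116) and the replicate block (0.00856).

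Ordered by group mean, Il6st and Jak1 ran from 2i through 25 µM and 50 µM down to primed cells, and of these neighbours only 50 µM and primed were called different. For Il6st the means were 42.2 ± 2.06, 40.4 ± 4.4, 38.7 ± 6.14 and 30.1 ± 4.01 CPM (SD, n = 3 each), and for Jak1 63.1 ± 3.88, 54.4 ± 1, 53.1 ± 5.45 and 44.6 ± 0.648 CPM. Pim1 kept the same order, with 201 ± 12.1, 180 ± 16.2, 138 ± 12.4 and 101 ± 23.5 CPM, and again only its lowest neighbours, 50 µM and primed, were called different. Pim3 and Junb had their highest mean in primed cells, at 310 ± 34.5 and 59.1 ± 9.56 CPM, and no pair of their other groups was called, apart from Pim3 at 50 µM against 2i with the replicate block or without 50 µM replicate 2, as given above. The primed group was followed by 2i (141 ± 6), 25 µM (130 ± 4.79) and 50 µM (118 ± 14.5 CPM) for Pim3, and by 25 µM (22.1 ± 1.7), 50 µM (21.2 ± 3.67) and 2i (18 ± 2 CPM) for Junb. Socs3 kept the order of Junb, with 128 ± 9.9, 100 ± 2.77, 98.5 ± 19.8 and 89 ± 7.57 CPM, and of its neighbours only primed and 25 µM were called different. Lifr was highest at 50 µM (44.8 ± 2.58 CPM), followed by primed (36.3 ± 1.22), 25 µM (35.6 ± 6.34) and 2i (34.9 ± 3.6), while the means of Stat3 lay between 109 ± 2.16 in primed and 118 ± 4.01 CPM at 50 µM, beside 118 ± 10.5 CPM at 25 µM. By the edgeR test that defines a call, Lifr, Stat3 and Gbx2 had no called difference in any pair of groups. Other settings that called Lifr or Gbx2 are given above. With the block, Lifr at 50 µM was called against each other group (edgeR adjusted p = 0.0125 against primed), and Gbx2 was called in 2i and at 25 µM against primed.

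Genes with the pattern most like that of a member were taken by Pearson correlation of log2 CPM over the 12 libraries, which share their group structure and whose r is given as a description. The search kept genes whose log2 CPM averaged 3 or more over the libraries, leaving out predicted and unnamed genes (symbols of the Gm and Rik kind). Of these genes, the nearest to Lifr were Creb1 (r = 0.94), Arl5a (0.91) and Btaf1 (0.91). Creb1, which encodes a transcription factor driven by cyclic AMP, averaged 54.8 CPM in primed libraries, 52.9 in 2i libraries, 55.7 at 25 µM and 72.7 at 50 µM. Nearest to Socs3 were Dohh (0.96), Rxrb (0.95) and Csad (0.95), and nearest to Gbx2 were Commd6 (0.88), Ankra2 (0.85) and Prelid3b (0.85).

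A transcript on the opposite strand, D130058E05Rik (ENSMUSG00000092627, chromosome 1, 89930234 to 89933290), shares 946 bases with the 5′ end of Gbx2. The shared bases lie at the 5′ end of both genes, while the libraries were counted from 3′ ends. How many reads fell in them was not tested. The sources do not state whether strand was used in counting. Without strand, reads in the shared bases cannot be told apart, so D130058E05Rik was described. It had 2.95, 2.19 and 2.03 CPM in primed cells, 3.69, 4.27 and 3.39 CPM in 2i, 6.27, 5.53 and 5.25 CPM at 25 µM, and 11.6, 10.7 and 6.96 CPM at 50 µM. In that order, the libraries of each group lay above all those of the group before it. It rose 2.57-fold at 50 µM over 2i (log2 1.36 ± 0.24; edgeR adjusted p = 0.000581), and its slope was 0.69 ± 0.12 per 25 µM (edgeR adjusted p = 0.000342). The changes at 25 µM over 2i (log2 0.58; edgeR adjusted p = 0.329) and in 2i over primed cells (log2 0.66; edgeR adjusted p = 0.0778) were not called. Gbx2 itself did not follow that order, with means of 8.23 in primed, 4.68 in 2i, 4.61 at 25 µM and 7.13 CPM at 50 µM.

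**Figure D4:**
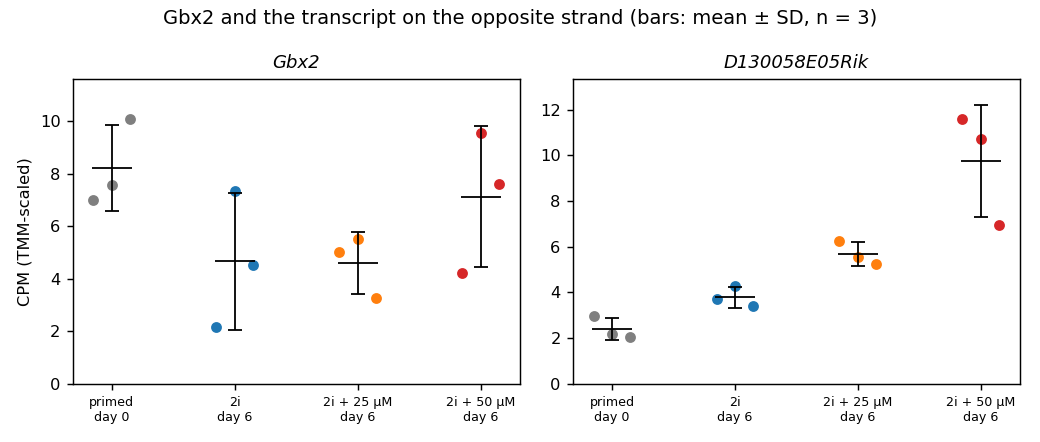
TMM-scaled CPM of Gbx2 (left) and of D130058E05Rik, the transcript on the opposite strand (right), in each library (points) with the mean ± SD of 3 libraries (bars), in primed, 2i, 25 µM and 50 µM groups. D130058E05Rik averages 2.39, 3.78, 5.69 and 9.78 CPM in that order, while Gbx2 is lowest on average at 25 µM.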

How the data were processed

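The members and the pathway lists were chosen with earlier results of these data known. Raw counts per gene, 1 table per library, were used as the authors deposited them. Per the labels' protocols, libraries were made with QuantSeq, which primes at poly(A) tails, so counts come from 3′ ends and were not scaled by length. FastQC, STAR, DESeq2 1.32.0 and the builds GRCm38 and mm10 appear in the submitters' processing notes. The sources used here do not give the counting tool, annotation release or strand setting. Each table held 56805 features; 114 spike-ins, with 2 counts in all, were left out. Symbols were found for 52073 of 56691 mouse IDs. A table of the whole series held the same values and was not used. Positions are from GENCODE M21 (GRCm38), and sequences from RefSeq (GRCm38.p6).

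Differences were tested in R 4.3.3 with edgeR 4.0.16 (quasi-likelihood F test, TMM normalisation, filterByExpr, robust dispersion, all 12 libraries in 1 fit), adjusted by Benjamini-Hochberg over 13230 genes and called below 0.05. The dose slope used the 9 day 6 libraries. SE is the log2 fold change divided by the square root of F. CPM are TMM-scaled; totals of 5894561 to 7060126 counts put Gbx2 near the limit of precision. The scripts were tested on simulated data. Alternatives were RLE and upper-quartile scaling, no filter, a filter at 5 CPM in 3 libraries, DESeq2 1.42.0, limma voom 3.58.1, fits of only the groups compared, a replicate block, and leaving out each library. Deviations from group means correlated between day 6 libraries of the same number in all 9 pairs (r = 0.115 to 0.314, against -0.204 to 0.0695 for other pairs). The numbers thus pair the day 6 groups through something that the labels do not name. The fit that defines a call does not use this pairing, so results with the replicate block are given beside it. All 9 members were named, and from the lists genes that were called or belong to the core pathway.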

Additional observations from a re-analysis of the deposited data

How the results depend on the processing

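Of 909 refits of single members, 850 kept their side of the threshold, 29 lost a call and 30 gained one. In 0 did the direction reverse where either fit was called. Where neither was called the sign could change, as for Gbx2 at 25 µM against 2i (log2 -0.39 to 0.46). In 2i against primed 122 of 126 kept their side and 4 gained a call. With TMM, RLE or upper-quartile scaling the median log2 change of all genes stayed between -0.018 and 0.029 in every comparison. At 25 µM against 2i, 124 genes were called in all, 268 with no filter, 81 with only the groups compared and 627 with the replicate block. At 50 µM against 2i, 1 member became 2 with only the groups compared and 4 with the replicate block, and 1994 genes became 3240 with the block. Between doses, 0 members became 1 with no filter and 2 with the block, and 153 genes became 329 and 542. For the slope, 1 member became 2 with upper-quartile scaling, no filter, the stricter filter or DESeq2, and 4 with the block, which moved 2007 genes to 3239. The cause was not tested. Against primed cells the pairing by number did not hold in all 9 pairs (r = 0.0115 to 0.244); the block gave 7 members in 2i and at 25 µM against primed, adding Gbx2, and 7 at 50 µM, adding Lifr.

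Without any single library, members called ranged from 6 to 7 in 2i against primed, 0 to 0 at 25 µM against 2i, 1 to 3 at 50 µM against 2i, 0 to 0 between doses, 4 to 6 at 25 µM and 3 to 5 at 50 µM against primed, and 1 to 2 for the slope. All genes called ranged from 4514 to 4892, 30 to 98, 1217 to 1644, 38 to 205, 4822 to 5170, 5056 to 5362 and 1196 to 2010 in that order. Depth limits Gbx2 most, with 14 to 65 counts per library.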
